A study of Homo sapiens with 3 samples.

Results

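Epithelial cells make a set of secreted signals that warn of damage and call in leukocytes, and 10 genes of this kind were read in MCF10A cells: IL1A, IL1B, IL1RN, IL18, IL33, IL6, CXCL1, CXCL2, CXCL8 and TSLP. They were chosen by gene symbol, and each symbol mapped to 1 Ensembl identifier, so that 10 of the 62754 genes in the table are described. MCF10A is an immortalized, non-tumorigenic human breast epithelial line. The cells carried the empty Retro-X Tet-One vector without an inserted gene, had been selected with puromycin, and received no doxycycline. They were grown in DMEM/F12 with a mammary epithelial growth supplement and cholera toxin, and RNA was taken 27 h after seeding. All 3 libraries belong to this 1 condition and to 1 batch, so no treatment, genotype or time can be compared, and the line was not set beside other lines.

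As background, the IL-1 family holds agonists (IL-1α, IL-1β, IL-18, IL-33), which signal through paired receptor chains to NF-κB, and IL-1Ra, which occupies the IL-1 receptor without activating it. IL-1β and IL-18 are made as precursors that are cut by caspase-1, whereas IL-1α and IL-33 act when released from damaged cells. CXCL1, CXCL2 and CXCL8 are chemokines with the ELR motif that attract neutrophils through CXCR1 and CXCR2. TSLP and IL-33 are alarmins of barrier epithelia. Transcripts of several of these genes are short-lived, because AU-rich elements in the 3′ untranslated region are bound by decay factors.

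Expression was measured as TPM (transcripts per 1000000), a unit that divides reads by gene length and brings every library to the same sum. The libraries held 15273329, 15446347 and 11166546 reads on annotated genes, rebuilt from TPM and gene length, of which 1477, 1541 and 1280 fell on the 10 genes. Library 3 stood apart: nuclear protein-coding genes held 73.6% of its TPM, against 85.5% and 84.1% in replicates 1 and 2, which lowers the TPM of these genes in replicate 3. The epithelial label was checked on its markers: 8 of 8 breast epithelial markers were at or above 1 TPM, with KRT5 at 6612 ± 890 TPM and TP63 at 49.8 ± 6.15 TPM (SD, n = 3 each). Of 8 leukocyte markers, 2 reached 1 TPM (CSF1R and CD14), the summed level was 5.33 to 7.81 TPM, CD3E had 0 reads, and PTPRC, the pan-leukocyte antigen, was at 0.0728 TPM. Of 6 fibroblast markers 2 (DCN and COL1A1), and of 4 endothelial markers 1 (PECAM1), reached 1 TPM, with summed levels of 13.6 to 14.8 and 1.87 to 2.20 TPM. The part of such cells in the levels below was not tested, and in bulk RNA fewer cells that express a gene and less RNA per cell cannot be told apart. Nothing in the labels says whether the replicates were separate cultures, so the spread between them may be technical.

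The chemokine genes CXCL1 and CXCL2 lie in the CXC cluster of chromosome 4 together with CXCL3, CXCL8 and others. The bases before their start sites are shown because they let a reader see how closely the promoters of neighbouring genes with different levels match. Each line gives the 120 bases before the RefSeq start (assembly GRCh38.p14), read 5′ to 3′ on the gene's own strand. Capitals mark full matches to an NF-κB consensus of 10 letters, GGGRNNYYCC, searched on both strands, and to TATAAA, searched on the gene's strand. In the consensus R is A or G, Y is C or T, and N is any base.
CXCL1 (chr4:73869273-73869392, + strand): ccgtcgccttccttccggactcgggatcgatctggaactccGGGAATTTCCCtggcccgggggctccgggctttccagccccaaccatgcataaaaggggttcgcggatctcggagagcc
CXCL2 (chr4:74099196-74099315, - strand): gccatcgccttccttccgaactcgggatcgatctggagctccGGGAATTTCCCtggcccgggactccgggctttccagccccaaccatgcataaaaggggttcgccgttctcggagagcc
CXCL3 (chr4:74038690-74038809, - strand): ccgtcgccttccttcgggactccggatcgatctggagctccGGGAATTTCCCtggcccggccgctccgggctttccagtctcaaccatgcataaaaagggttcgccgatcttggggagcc
CXCL8 (chr4:73740449-73740568, + strand): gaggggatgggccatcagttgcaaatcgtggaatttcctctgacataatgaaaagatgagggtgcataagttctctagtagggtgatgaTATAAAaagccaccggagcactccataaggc
IL6 (chr7:22727080-22727199, + strand): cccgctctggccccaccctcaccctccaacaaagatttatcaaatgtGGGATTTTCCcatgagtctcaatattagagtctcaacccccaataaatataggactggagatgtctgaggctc
The promoter bases of CXCL1 and CXCL2 were 93.4% identical, those of CXCL1 and CXCL3 90.8%, and those of CXCL1 and CXCL8 46.1%. Over the 300 bases from 250 before to 50 after the start, identity to CXCL1 was 71.9% for CXCL2, 82.5% for CXCL3 and 45.2% for CXCL8, so that CXCL3 was the closer over this longer window. In CXCL1, CXCL2 and CXCL3 a pair of NF-κB matches overlapped, starting 79 and 78 bases before the start in CXCL1 and CXCL3 and 78 and 77 in CXCL2. In IL6 the match began 73 bases before the start. RefSeq promoters of these 300 bases were found for 9 of the 10 genes, and IL18 was not matched. An NF-κB match was present in 4 of these 9 promoters (CXCL1, CXCL2, IL6 and TSLP), against 11.3% of all 35116 promoters in the RefSeq table. The letters TATAAA were present in 4 of 9 (IL1A, IL1RN, CXCL8 and TSLP), against 7.33% of all, and TGANTCA, an AP-1 motif searched on both strands, in 2 of 9 (IL1A and CXCL8), against 7.71%. Only full matches were counted, and tggaatttcc in the CXCL8 line differs from the NF-κB consensus in its first letter alone. These matches describe letters in the window and not bound sites.

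The 10 genes also differed in AU-rich letters of their 3′ untranslated regions. The sites below are shown because 4 of the 10 genes held TTATTTATT, an AU-rich nonamer. Over 18492 canonical 3′ untranslated regions of at least 100 bases, the share with it was 8.92%. Only these exact letters were searched, so other forms of the nonamer were not counted. Each line gives 23 bases around the first nonamer on hg38, with the nonamer in capitals and T for U.
CXCL1 (chr4:73870677-73870699, + strand): cttctatTTATTTATTtattcat
CXCL2 (chr4:74097593-74097615, - strand): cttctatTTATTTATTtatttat
CXCL8 (chr4:73742667-73742689, + strand): taaagtaTTATTTATTtgaatct
IL1B (chr2:112829998-112830020, - strand): tccctatTTATTTATTtatttgt
CXCL2 held 5 nonamers, CXCL1 3, IL1B 2 and CXCL8 1. The shorter pentamer ATTTA, with overlaps counted, was densest in IL6 with 14.1 per kb, followed by CXCL2 with 13.97, IL1B with 9.84, CXCL1 with 7.77 and CXCL8 with 7.19 per kb. The median over the 10 genes was 5.78 per kb and over all such regions 1.64 per kb. IL18 and IL1RN held none.

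Of the 10 genes, 6 had a mean of at least 1 TPM, the cutoff the study set for expression, and 3 were below it in every replicate. Over all 20046 protein-coding genes the share at or above this cutoff was 56.7%, so that the count of 6 is close to the background. The median of the 10 means was 5.91 TPM, against 3.75 TPM over all protein-coding genes. The summed TPM of the 10 genes was 168, 173 and 170 in replicates 1, 2 and 3, and IL18 alone gave 69.6%, 63.8% and 69.1% of it. The order of the means was IL18, IL1A, CXCL1, CXCL2, CXCL8, IL1B, IL1RN, IL6, IL33 and TSLP. Of the 9 pairs of neighbours in this order, 5 did not overlap between replicates: IL18 above IL1A, CXCL2 above CXCL8, CXCL8 above IL1B, IL1B above IL1RN and IL33 above TSLP. The other 4 pairs overlapped. No test was run on these pairs, since with 3 libraries an exact sign-flip permutation test of the differences within libraries cannot give a two-sided p below 0.25.

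**Figure D1:**
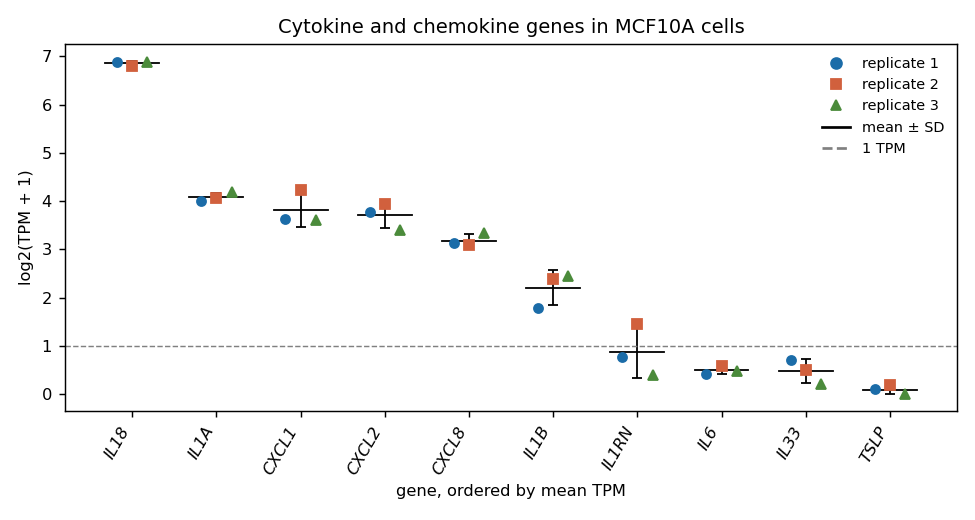
Level of the 10 genes in each replicate, as log2(TPM + 1), ordered by mean TPM, with points for replicates, horizontal lines for the mean of the log values and bars for the SD (n = 3). IL18 lies above all others, 5 genes lie between 3.71 and 16.03 TPM by their means, and IL1RN has replicates on both sides of 1 TPM.

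IL18 (ENSG00000150782), which encodes the precursor of the IL-1 family cytokine IL-18, is on the minus strand of chromosome 11 (hg38, 112143253 to 112164096), the build used for every position given here. Its levels were 117, 110 and 118 TPM from 1046, 1013 and 893 reads, with a mean of 115 ± 4.03 TPM (SD, n = 3). On the deposited scale the replicates were close to each other. With TPM rescaled so that nuclear protein-coding genes sum to 1000000, IL18 stood at 137, 131 and 160 TPM, with an SD of 15.03 TPM (n = 3). The deposited mean exceeded that of 93.4% of protein-coding genes. It was 7.76, 6.99 and 6.84 times the TPM of IL1A in replicates 1, 2 and 3. The deposited level divides by 1694 bases, from a transcript longer than the canonical transcript of 1115 bases. With canonical lengths for all genes the mean of IL18 was 143 ± 6.24 TPM (SD, n = 3). Its ratio to IL1A was then 11.8, 10.7 and 10.4. In this setting each library was brought to the same sum again, which also moved genes of nearly unchanged length. IL1A, at 2010 and 2017 bases, went from 16.03 to 13.09 TPM.

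IL1A (ENSG00000115008, minus strand of chromosome 2, 112773925 to 112784493) encodes IL-1α, an agonist of the IL-1 receptor that is active without cleavage. It was measured at 15.1, 15.8 and 17.2 TPM from 160, 172 and 155 reads, with a mean of 16.03 ± 1.07 TPM (SD, n = 3). IL1B (ENSG00000125538, minus strand of chromosome 2, 112829751 to 112836816), the neighbouring gene for IL-1β, was measured at 2.47, 4.24 and 4.43 TPM from 21, 37 and 32 reads, with a mean of 3.71 ± 1.08 TPM (SD, n = 3). IL1A was above IL1B in every replicate without overlap, by a ratio of 6.11, 3.73 and 3.88.

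IL1RN (ENSG00000136689, plus strand of chromosome 2, 113099315 to 113134016) encodes the receptor antagonist IL-1Ra. Its levels of 0.715, 1.74 and 0.315 TPM rested on 8, 20 and 3 reads, with a mean of 0.923 ± 0.734 TPM (SD, n = 3). Replicate 2 alone was at or above 1 TPM, and the mean TPM of IL1RN was 1.03 without replicate 1, 0.515 without replicate 2 and 1.23 without replicate 3. On the rescaled TPM it was 1.11 TPM. IL1A exceeded IL1RN in every replicate, by a ratio between 9.08 and 54.6, and IL1B did so by a ratio between 2.44 and 14.1. The width of both ranges goes with the 3 reads of IL1RN in replicate 3. The deposited level of IL1RN divides by 2123 bases, where the canonical transcript has 1704. With canonical lengths IL1A exceeded IL1RN by a ratio between 7.27 and 43.6, and IL1B did so by a ratio between 2.09 and 12.1.

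IL33 (ENSG00000137033, plus strand of chromosome 9, 6215786 to 6257983) encodes a nuclear IL-1 family alarmin. It was measured at 0.638, 0.414 and 0.167 TPM from 9, 6 and 2 reads, with a mean of 0.406 ± 0.236 TPM (SD, n = 3). Exact Poisson 95% intervals of the replicates reached from 0.292 to 1.21, from 0.152 to 0.900 and from 0.0202 to 0.602 TPM, and such intervals cover counting error only. A level above 1 TPM in replicate 1 is thus not told apart from one below it at this depth.

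CXCL1 (ENSG00000163739, plus strand of chromosome 4, 73869393 to 73871308) was measured at 11.4, 17.8 and 11.2 TPM from 70, 113 and 59 reads, with a mean of 13.5 ± 3.77 TPM (SD, n = 3). CXCL2 (ENSG00000081041, minus strand of chromosome 4, 74097040 to 74099196) was measured at 12.6, 14.5 and 9.63 TPM from 74, 87 and 48 reads, with a mean of 12.2 ± 2.43 TPM (SD, n = 3). Both chemokines were highest in replicate 2, and their levels overlapped, with CXCL2 the higher in replicate 1 and CXCL1 in the others. Their coding sequences were 93.5% identical, and 5.33% of the 50-base windows of the CXCL1 transcript and 10.1% of those of CXCL2 occurred unchanged in transcripts of another gene, CXCL2, CXCL3 or CXCL1. Reads from such windows cannot be assigned by sequence, and windows that differ in a few letters were not counted. Both levels are thus uncertain, by an amount that was not measured.

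CXCL8 (ENSG00000169429, plus strand of chromosome 4, 73740519 to 73743716), which encodes interleukin-8, was measured at 7.72, 7.52 and 9.08 TPM, with a mean of 8.11 ± 0.849 TPM (SD, n = 3). Each library held 82 reads of it. Its highest replicate was below the lowest replicate of CXCL1 and of CXCL2, and no 50-base window of its transcript occurred in another gene. With TPM computed on the canonical transcript length, CXCL8 at 8.15 TPM overlapped with CXCL2 at 9.97 TPM and with CXCL1 at 10.98 TPM.

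IL6 (ENSG00000136244, plus strand of chromosome 7, 22725884 to 22732002) encodes interleukin-6, a cytokine of the acute phase response. It was measured at 0.343, 0.501 and 0.403 TPM from 6, 9 and 6 reads, with a mean of 0.416 ± 0.0796 TPM (SD, n = 3), below 1 TPM in every replicate. IL6-AS1 and STEAP1B on the other strand overlap 4.70% of the canonical exons, and since the use of strand is not given, reads of either strand cannot be told apart there. This level depended on the length by which reads were divided, which was 3317 bases in the deposited values, where the canonical transcript has 1127. With the canonical length the mean was 1.00 ± 0.189 TPM (SD, n = 3), with replicate 2 alone above 1 TPM. This mean was above that of IL1RN at 0.937 TPM, but the replicates of both genes overlapped.

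TSLP (ENSG00000145777, plus strand of chromosome 5, 111070062 to 111078026) encodes thymic stromal lymphopoietin. Its 0.0725, 0.141 and 0 TPM came from 1, 2 and 0 reads. The 0 reads of replicate 3 allow up to 0.256 TPM, the value of 3 reads. A gene on the other strand, ENSG00000253613, overlaps 8.81% of its canonical exons. Its highest replicate and the lowest replicate of IL33 held 2 reads each, and the limit in replicate 3 was above the 0.167 TPM of IL33 there, so the order of these genes was not established at this depth.

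**Figure D2:**
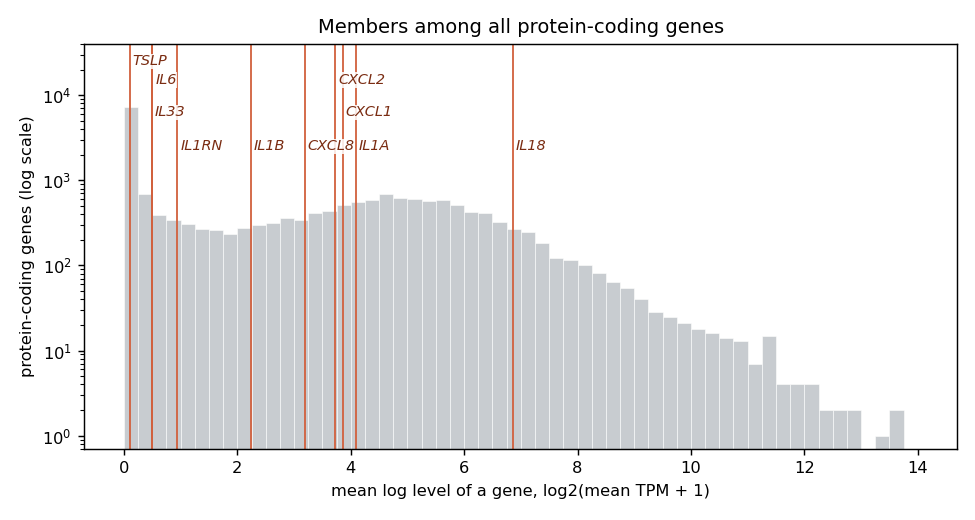
Number of protein-coding genes (log axis) by level, as log2(mean TPM + 1), with vertical lines at the means of the 10 genes. IL18 lies above 93.4% of the 20046 protein-coding genes, IL1A above 64.3% and TSLP above 32.2%.

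To see whether replicates differed by more than counting error, the reads of each gene were compared between each pair of libraries, per read on nuclear protein-coding genes. By a two-sided exact binomial test with Benjamini-Hochberg adjustment over all genes with at least 15 reads in the pair, 3 of the 9 genes that could be tested were called in at least 1 pair. Over all 15254 genes tested the share was 34.6%, so that this count is close to the background. The test compares libraries and not conditions. CXCL1 had more reads in replicate 2 than in replicate 1, by 0.68 on the log2 scale (exact binomial, adjusted p = 0.0128). IL1RN fell by 2.06 on the log2 scale from replicate 2 to replicate 3 (exact binomial, adjusted p = 0.0229). IL18 was higher in replicate 3 than in replicate 1 by 0.25 (adjusted p = 0.00364) and than in replicate 2 by 0.31 (adjusted p = 4.92e-05) on the log2 scale, both by the exact binomial test. The calls for IL18 turned on the scaling: with equal deposited TPM as the expectation, IL18 was not called and CXCL1 and IL1RN were. IL1A, IL1B, CXCL2, CXCL8, IL6 and IL33 were called in no pair, and TSLP had too few reads. On the log2(TPM + 1) scale the SD over replicates had a median of 0.19 for the 10 genes and 0.16 for protein-coding genes with at least 1 TPM.

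**Figure D3:**
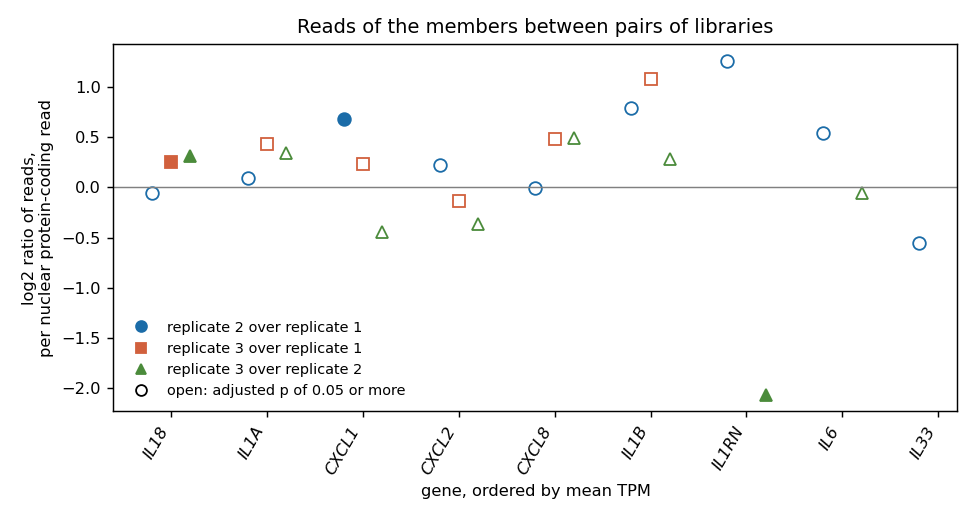
Log2 ratio of reads between pairs of libraries, per read on nuclear protein-coding genes, for the 9 genes with at least 15 reads in a pair; filled symbols mark an adjusted p under 0.05. CXCL1 (replicate 2 over 1), IL18 (replicate 3 over 1 and over 2) and IL1RN (replicate 3 over 2) are filled.

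The genes around these ligands were read from 16 lists of 133 genes, which include the 10. Of the 123 others, 70 had a mean of at least 1 TPM. Over all 20046 protein-coding genes the share was 56.7%, so that this count is close to the background. The same share is the background for the list counts below. Of the IL-1 family, 3 of 11 ligand genes (IL18, IL1A and IL1B) and 4 of 9 receptor or binding protein genes reached it. For the IL-1 receptor, IL1R1, the signalling chain, was measured at 12.99, 11.96 and 10.005 TPM, and IL1RAP, the accessory chain, at 46.8, 45.2 and 42.8 TPM, without overlap. The decoy receptor IL1R2 was at 0.131, 0.508 and 0.921 TPM from 1, 4 and 6 reads. For IL-18, the binding chain IL18R1 was measured at 2.66, 2.14 and 1.46 TPM, and the accessory chain IL18RAP had 0, 1 and 0 reads. IL18BP, a secreted protein that binds IL-18, was at 3.57, 5.78 and 3.44 TPM, so that IL18 exceeded it by a ratio between 19.1 and 34.2, or between 11.9 and 21.2 with canonical lengths. The IL-33 receptor chain IL1RL1 was below 1 TPM in every replicate, with a mean of 0.274 ± 0.164 TPM (SD, n = 3), and exons of IL18R1 overlap 3.05% of its canonical transcript.

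For IL-6 the receptor genes were well above the ligand. IL6R, the binding chain, was measured at 27.3, 27.3 and 23.3 TPM, and IL6ST, the signalling chain gp130, at 62.0, 51.4 and 54.1 TPM, without overlap between them. Exons on the other strand overlap 8.83% of the canonical exons of IL6ST, where reads of either strand cannot be told apart. For the ELR chemokines, 4 of 7 ligand genes and 0 of 3 receptor genes reached 1 TPM, and the receptor genes were lower than CXCL1, CXCL2 and CXCL8 in every replicate. CXCR1 (0.198 ± 0.149 TPM), CXCR2 (0.140 ± 0.0146 TPM) and the scavenging receptor ACKR1 (0.722 ± 0.490 TPM; SD, n = 3 each) had means below 1 TPM, from at most 7 reads in a library, and ACKR1 was above 1 TPM in replicate 3 alone. Without replicate 3, the mean TPM of CXCR1 was 0.115 and the mean TPM of ACKR1 was 0.455. Of the 4 genes of the TSLP receptor list, STAT5B alone reached 1 TPM. The receptor chain IL7R was measured at 0.415, 0.887 and 0.877 TPM. CRLF2, the other chain, had 0 reads, but it is annotated in copies on chromosomes X and Y, so reads could have been lost between the copies and its level is not known.

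**Figure D4:**
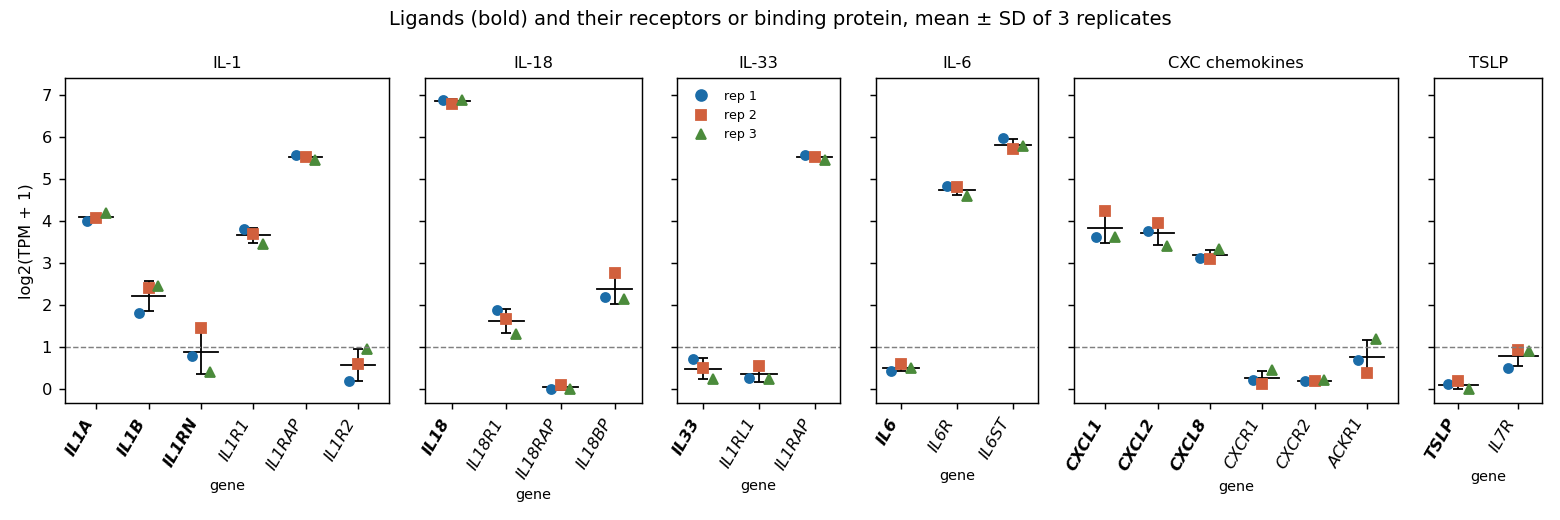
Levels of the ligands (bold) and of their receptor or binding protein genes in each replicate, as log2(TPM + 1), with the mean of the log values and SD (n = 3) and a dashed line at 1 TPM. IL6R and IL6ST lie above IL6, and CXCR1, CXCR2 and ACKR1 lie below CXCL1, CXCL2 and CXCL8. CRLF2 is not plotted.

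The clusters that hold 6 of the 10 genes were read gene by gene. The chromosome 2 cluster holds 9 IL-1 family genes, of which IL1A and IL1B (22.2%) reached 1 TPM, against 56.7% of protein-coding genes. Between them and IL1RN lie IL37, with 0, 2 and 0 reads, and IL36G, IL36A, IL36B, IL36RN and IL1F10, with 0 reads in every replicate, which allows up to 0.755 TPM for IL36A and less for the others. The chromosome 4 cluster holds 9 CXC genes, of which CXCL8, CXCL1, CXCL2 and CXCL3 (44.4%) reached 1 TPM. CXCL3 was measured at 1.39, 2.14 and 0.544 TPM from 12, 19 and 4 reads, below CXCL1 and CXCL2 in every replicate without overlap, and CXCL1 exceeded it by a ratio between 8.17 and 20.7, or between 5.34 and 13.5 with canonical lengths. Of the 50-base windows of the CXCL3 transcript, 5.26% occurred unchanged in CXCL1 or CXCL2. This share does not bound the error in its level, since CXCL3 held far fewer reads than either gene. CXCL1 held 70, 113 and 59 reads and CXCL2 74, 87 and 48. The effect of shared windows on the level of CXCL3 and on its ratio to CXCL1 was not tested. The promoter bases of CXCL3, printed above, were 90.8% identical to those of CXCL1. CXCL5 had 1, 0 and 0 reads, and CXCL6, PF4V1, PF4 and PPBP had 0. PF4 and PPBP share 66.0% and 34.7% of their canonical transcripts with another gene on the same strand, so their 0 reads do not show a lack of expression.

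**Figure D5:**
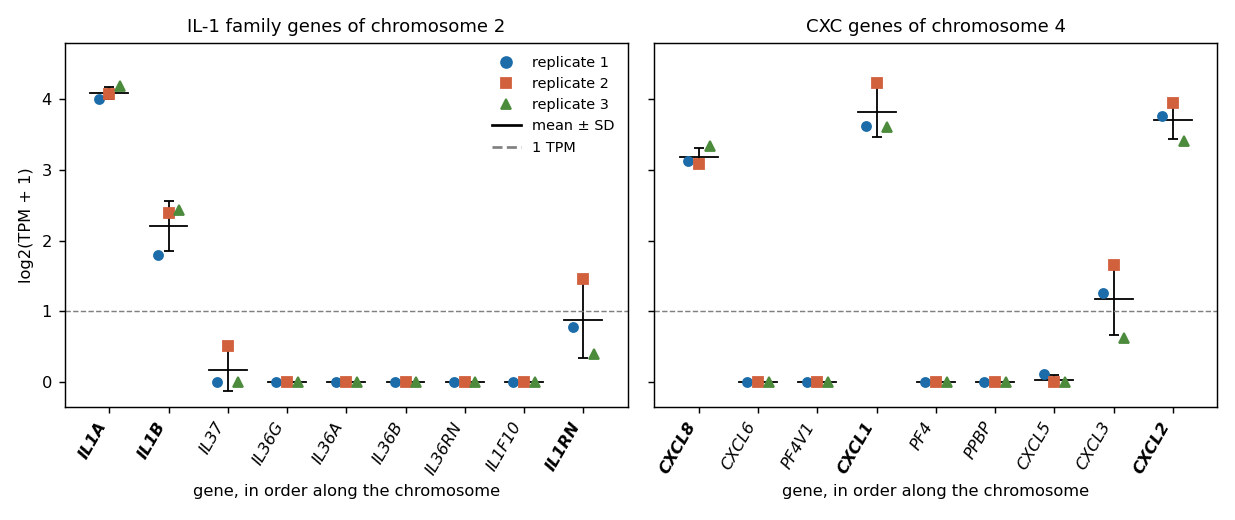
Levels of the 9 IL-1 family genes of chromosome 2 and the 9 CXC genes of chromosome 4, in order along the chromosome, as log2(TPM + 1) per replicate, with the mean of the log values and SD (n = 3). The 10 genes described are in bold where they lie in a cluster. By their means, IL1A and IL1B stand above 1 TPM at one end of the first cluster, and CXCL8, CXCL1, CXCL3 and CXCL2 in the second. Replicate 3 of CXCL3 lies below 1 TPM, and replicate 2 of IL1RN lies above it.

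Genes that act on the ligands were also read. Of 14 inflammasome and processing genes, 9 reached 1 TPM. The calpain genes CAPN2, CAPNS1 and CAPN1, of proteases known to cut the IL-1α precursor, were highest, at 658 ± 70.1, 299 ± 48.1 and 173 ± 24.0 TPM (SD, n = 3 each). CASP1, which cuts the precursors of IL-1β and IL-18, was measured at 28.3, 26.8 and 28.2 TPM. The sensor NLRP1 was at 4.75 ± 0.709 TPM (SD, n = 3), the adaptor PYCARD at 0.501, 1.30 and 0.786 TPM from 3, 8 and 4 reads, NLRP3 at 0, 2 and 0 reads, and NLRC4 at 0 reads. PYCARD thus had replicates on both sides of 1 TPM.

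Of 10 adaptors and kinases of IL-1 and Toll-like receptors, 9 reached 1 TPM, led by IRAK1 at 211 ± 32.6, TAB2 at 70.0 ± 6.81 and MAP3K7 at 46.0 ± 4.66 TPM (SD, n = 3 each). The exception was IRAK3, a kinase-dead inhibitor, at 0.0150 TPM. All 15 genes of the NF-κB list reached 1 TPM, with TNIP1 at 123 ± 18.4, NFKBIA at 82.4 ± 8.16 and RELA at 54.7 ± 6.54 TPM (SD, n = 3 each). So did all 9 genes of the list for binding and decay of AU-rich transcripts, with ZFP36L2 at 288 ± 25.3, KHSRP at 255 ± 38.7 and ZFP36L1 at 183 ± 30.1 TPM (SD, n = 3 each). Of 10 receptor and signalling genes for the IL-6 family, 9 reached it, led by STAT3 at 101 ± 8.32 and OSMR at 68.4 ± 6.57 TPM (SD, n = 3 each). Among the 8 ligand genes of that family, 4 reached 1 TPM, with CLCF1 at 6.21 ± 0.426, IL11 at 4.59 ± 0.801, CNTF at 3.87 ± 0.951 and LIF at 1.23 ± 0.383 TPM (SD, n = 3 each). With the deposited lengths IL6 was below these 4 and below CTF1, at 0.999 ± 0.218 TPM (SD, n = 3), without overlap. With the canonical lengths IL6 overlapped with LIF and CTF1, and was below CLCF1, IL11 and CNTF without overlap.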

How the data were processed

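RNA of 3 replicates of MCF10A cells was depleted of ribosomal RNA, and 300 ng per library were used. By the study's methods, reads were mapped to hg38 and counted with Seq2science. The submitters' processing notes name fastp, STAR and MultiQC and the builds hg38 and GRCh38.p14. Which annotation was counted, and with what strand setting, is not given in the sources used here. The authors deposited TPM values for 62754 genes, 1 column per replicate, each with a sum of 1000000, and all columns were used.

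Symbols, coordinates and lengths came from GENCODE release 44, which held 62700 of the identifiers. TPM times length, divided by the smallest step of a library, was whole within 0.01 for 100% of annotated genes and was read as reads, with the smallest step as 1 read. The length was the exon sum of a transcript minus its number of exons, at its largest for the gene. For IL6, IL18, CXCL8, IL1RN, IL1B and TSLP it came from a transcript longer than the canonical transcript. The lengths used and the canonical lengths were 2014 and 1642 bases for CXCL8 and 2123 and 1704 for IL1RN. They were 1611 and 1507 bases for IL1B and 2616 and 2610 for TSLP. Reads were compared between pairs of libraries by two-sided exact binomial tests with Benjamini-Hochberg adjustment at 0.05 across all genes with at least 15 reads in the pair, and the test was checked on simulated data. A count of 0 was given a limit of 3 reads. Such limits and intervals cover counting error only.

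The 10 genes and the gene lists were chosen with earlier results of these data known. Named from each list were the 3 genes with the highest mean, the receptors of the 10 genes and the other genes of both clusters. Marker genes were named by their lists. From the lists in the closing section, and for PYCARD, NLRP1, NLRP3, NLRC4, CASP1, IRAK3 and the 4 IL-6 family ligands, genes were named after their values were seen where this rule did not take them. Promoters were RefSeq sequences of GRCh38.p14, taken at the start nearest to the canonical transcript, and AU-rich letters were read from canonical GENCODE transcripts. Alternatives covered the cutoff, the summary of replicates, the scaling, the pseudocount of 1, the filter on low values and leaving out each replicate. The alternative of the canonical transcript length was chosen after seeing the data. The scripts ran on Python 3.11.15 with scipy 1.17.1 for tests, matplotlib 3.10.9 for plots, and pandas 2.3.3 and numpy 2.4.6.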

Additional observations from a re-analysis of the deposited data

How the results depend on the processing

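No paired analysis was possible because the 3 libraries form a single group. Of the 10 genes, 6 reached 1 TPM, and under every alternative tried 6 or 7 did. The added gene was IL1RN with a cutoff of 0.5 TPM, with TPM rescaled to nuclear protein-coding genes, without replicate 1 and without replicate 3, and IL6 with the canonical transcript length, a setting that was chosen after seeing the data. Among listed pathway genes 76 reached the cutoff, with counts between 68 (cutoff of 2 TPM) and 86 (cutoff of 0.5 TPM). The number of neighbours without overlap was 5 and lay between 4 (canonical length) and 6 (without replicate 2 and without replicate 3). The median SD of log2(TPM + 1) over the 10 genes was 0.19, 0.22 with rescaled TPM, 0.18 with the canonical length, 0.34 with a pseudocount of 0.1, 0.20 over genes with at least 1 TPM, and from 0.12 to 0.15 when a replicate was left out. The number of the 10 genes that differed between libraries was 3 of 9 tested (34.6% of all genes tested). Leaving out a replicate leaves 1 pair of libraries by construction. The count was then 2 of 8 without replicate 1 (26.8% of all genes tested), 1 of 6 without replicate 2 (8.57%) and 1 of 9 without replicate 3 (20.9%). It was 2 of 9 with equal deposited TPM (58.7% of all genes) and 3 of 10 without a filter on reads (18.1% of all genes). Rescaling raised nuclear protein-coding genes with at least 1 TPM by a median of 0.30 on the log2 scale, so that IL18 stood at 143 TPM, and multiplied replicate 3 by 1.36 and the others by 1.17 and 1.19. Depth limits IL1RN, IL6, IL33 and TSLP, with 31, 21, 17 and 3 reads over all libraries.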

Other observations

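Secreted factors outside the 10 genes included some of higher level than the chemokines among them. CCL20, a chemokine that attracts cells with CCR6, was measured at 22.7, 23.4 and 29.6 TPM, and CSF3, which encodes the granulocyte growth factor G-CSF, at 31.5, 37.3 and 29.7 TPM. Every replicate of both was above every replicate of CXCL1, CXCL2 and CXCL8, and also of IL1A. CXCL16 followed with 10.5 ± 1.16 TPM (SD, n = 3), and of the 14 other chemokines listed only CCL20, CXCL16 and CCL28, the last at 1.45 ± 0.421 TPM (SD, n = 3), had a mean of at least 1 TPM. Of the 14 other cytokines listed, 5 reached it: besides CSF3 these were CSF1 at 4.43 ± 1.41, IL32 at 1.80 ± 0.429 and IL7 at 1.70 ± 0.0615 TPM (SD, n = 3 each), and IL12A. IL12A was measured at 0.498, 2.23 and 0.702 TPM, so that its mean of 1.14 TPM rested on replicate 2, with a mean TPM of IL12A of 0.600 without it. TNF had 0, 1 and 0 reads. Among the alarmins listed, HMGB1, a chromatin protein that can be released from damaged cells, was at 157 ± 14.7 TPM (SD, n = 3), where IL33 and TSLP were below 1 TPM in every replicate and IL25 had 0 reads. STAT5B, which relays signals of the TSLP receptor among others, was at 23.6 ± 2.26 TPM (SD, n = 3).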
